A study of Mus musculus with 15 samples.

Results

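The insulin-like growth factor system was followed through 9 genes of the 53465 in the table of normalized counts, taken by their gene names: the ligand *Igf1*, the receptors *Igf1r* and *Igf2r*, and the binding proteins *Igfbp2*, *Igfbp3*, *Igfbp4*, *Igfbp5*, *Igfbp6* and *Igfbp7*. The libraries came from 3 populations of a proposed endothelial hierarchy, each with 5 replicates: Endovascular progenitor (EVP, CD31lo VEGFR2lo), Transit amplifying (TA, CD31int VEGFR2lo) and Definitive differentiated (D, CD31hi VEGFR2hi) cells. All 3 were sorted at day 15 as GFP+ Lin-CD34+ cells from tumors of B16-F0, a mouse melanoma cell line, in adult CAG-GFP mice, in which the transgene labels every host cell and not the endothelium alone. The labels do not say whether replicates are separate animals, so p-values measure the spread between these samples.

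IGF1 is a secreted growth factor that binds the receptor tyrosine kinase IGF1R and drives growth and survival through the insulin receptor substrates and AKT. IGF2R, the cation-independent mannose 6-phosphate receptor, carries lysosomal enzymes and removes IGF2 from the cell surface. The binding proteins hold IGFs in the extracellular space, and proteases release them. IGFBP7 binds IGFs only weakly and is known as a matrix protein of tumor vessels.

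The 250 bases before the RefSeq start sites of 3 binding protein genes are shown because these genes stood at opposite ends of the EVP to D comparison, *Igfbp6* being higher in EVP and *Igfbp3* and *Igfbp7* higher in D. The windows are from GRCm38.p6, are written 5′ to 3′ on the strand of the gene, overlap no annotated exon, and have every CpG dinucleotide in capitals. They are at chr15:102143936-102144185 (plus strand), chr11:7213924-7214173 (minus strand) and chr5:77408046-77408295 (minus strand).
Igfbp6: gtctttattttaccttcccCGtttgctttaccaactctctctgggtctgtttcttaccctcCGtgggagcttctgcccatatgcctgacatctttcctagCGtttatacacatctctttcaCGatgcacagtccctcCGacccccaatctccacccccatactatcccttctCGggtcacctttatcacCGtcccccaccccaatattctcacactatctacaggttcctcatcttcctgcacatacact
Igfbp3: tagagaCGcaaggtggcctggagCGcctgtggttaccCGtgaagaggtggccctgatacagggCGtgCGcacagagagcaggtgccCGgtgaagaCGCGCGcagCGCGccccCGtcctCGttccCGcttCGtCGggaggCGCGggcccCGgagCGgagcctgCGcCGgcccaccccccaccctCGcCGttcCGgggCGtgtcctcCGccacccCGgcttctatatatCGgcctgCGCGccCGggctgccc
Igfbp7: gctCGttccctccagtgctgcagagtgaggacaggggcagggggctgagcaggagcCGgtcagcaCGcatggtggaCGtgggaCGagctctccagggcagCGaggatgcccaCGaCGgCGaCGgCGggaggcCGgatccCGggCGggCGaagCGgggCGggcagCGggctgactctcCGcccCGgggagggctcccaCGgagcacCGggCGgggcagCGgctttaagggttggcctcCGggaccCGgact

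The windows do not all lie equally near the genes as annotated. That of *Igfbp6* ends at 102144185 and the gene starts at 102144362, and that of *Igf1r* ends at 67952256 and the gene starts at 67952827. Those of *Igfbp3* and *Igfbp7* lie closer to their genes. The *Igfbp6* window held 7 CpG dinucleotides, *Igfbp3* 32 and *Igfbp7* 26. Over all 32851 windows of this length the median was 6, with quartiles at 2 and 16. The other genes that were higher in EVP had 5 (*Igf1*), 10 (*Igfbp5*) and 14 and 11 (the 2 starts of *Igfbp2*), and the genes that passed no test had 42 (*Igf1r*), 27 (*Igf2r*) and 22 (*Igfbp4*). The genes higher in EVP thus had 5 to 14. Those higher in D and those that passed no test had 22 to 42. Any part of CpG density in these differences was not tested. An annotated exon covers the whole *Igf1* window, 65 bases of the *Igfbp2* window with 11, and 19 bases of the *Igfbp5* window. Of 3 motifs searched on both strands, with any overlap counted, CCAAT was in the windows of *Igfbp6* and *Igf1* and in 33.8% of all windows. GGGCGG was found in *Igfbp7*, *Igf1r*, *Igf2r* and 1 window of *Igfbp2* (32.7% of all windows), and TATAAA in *Igfbp6* and *Igfbp4* (12.4%). These matches describe the letters and are not shown to be used.

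Depth ranged from 5394356 to 26513073 reads on genes. Replicate 1 of each population had reads on the most of 1106 olfactory receptor genes, at 98.3% (EVP), 81.6% (TA) and 89.2% (D). The other libraries ranged from 2.89% to 71.0%, highest in TA replicate 3 (71.0%), EVP replicate 2 (61.8%) and TA replicate 2 (57.8%). The gene *Gm10800* took 10.6%, 8.69% and 8.50% of the reads in replicate 1 of EVP, TA and D. In every other library it took 0.701% or less. Fibroblast markers (10 genes) summed to 863257 to 1551220 normalized counts in EVP, 196598 to 619562 in TA and 1145 to 4261 in D. Pan-endothelial markers (12 genes) summed to 2429 to 4557 in EVP, 6175 to 79337 in TA and 110813 to 175922 in D, and none was at 0 throughout a population. The highest sums of mural, leukocyte, melanoma and keratinocyte markers were in TA, and for melanoma markers every TA library was above every EVP and D library. In EVP, TA and D, mural markers (11 genes) summed to 7454 to 34731, 6272 to 157454 and 5228 to 10916, and macrophage and leukocyte markers (12 genes) to 2544 to 12770, 8442 to 45246 and 4126 to 13119. Melanoma markers (7 genes) summed to 29776 to 67410, 69334 to 176152 and 18213 to 47920, and keratinocyte markers (4 genes) to 976 to 5442, 777 to 65413 and 51.1 to 1652. In bulk libraries of this kind, fewer cells of a type and less RNA per cell cannot be told apart.

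The comparison of EVP with D asked which genes differ between the ends of the hierarchy. *Igf1*, *Igfbp2*, *Igfbp5* and *Igfbp6* were higher in EVP and *Igfbp3* and *Igfbp7* were higher in D, so that 6 of the 9 genes passed the test, while *Igf1r*, *Igf2r* and *Igfbp4* did not. Of the 25549 genes tested with limma, 19.0% passed in this comparison at an adjusted p under 0.05, 11.6% higher in EVP and 7.46% higher in D. Libraries of EVP and D did not overlap for the same 6 genes, against 17.7% of all genes tested. Between TA and D the same 6 genes passed in the same directions, with a background of 12.5% (8.21% higher in TA and 4.31% higher in D), and EVP and TA differed in *Igf1* and *Igfbp3* against a background of 3.50% (1.56% toward EVP, 1.94% toward TA). TA and D did not overlap for 4 of the 9 genes, *Igf1*, *Igfbp5*, *Igfbp6* and *Igfbp7*, against 9.25% of all genes tested. The comparisons share libraries, so they are not independent. Without replicate 1 of every population, the same 6 genes passed between EVP and D and between TA and D. Between EVP and TA limma then called 0 of the 9 (5 at an unadjusted p under 0.05). Over all 25549 genes it called 104 there, against 893 with every library. All 9 genes had a mean of at least 5 normalized counts and were tested.

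**Figure D1:**
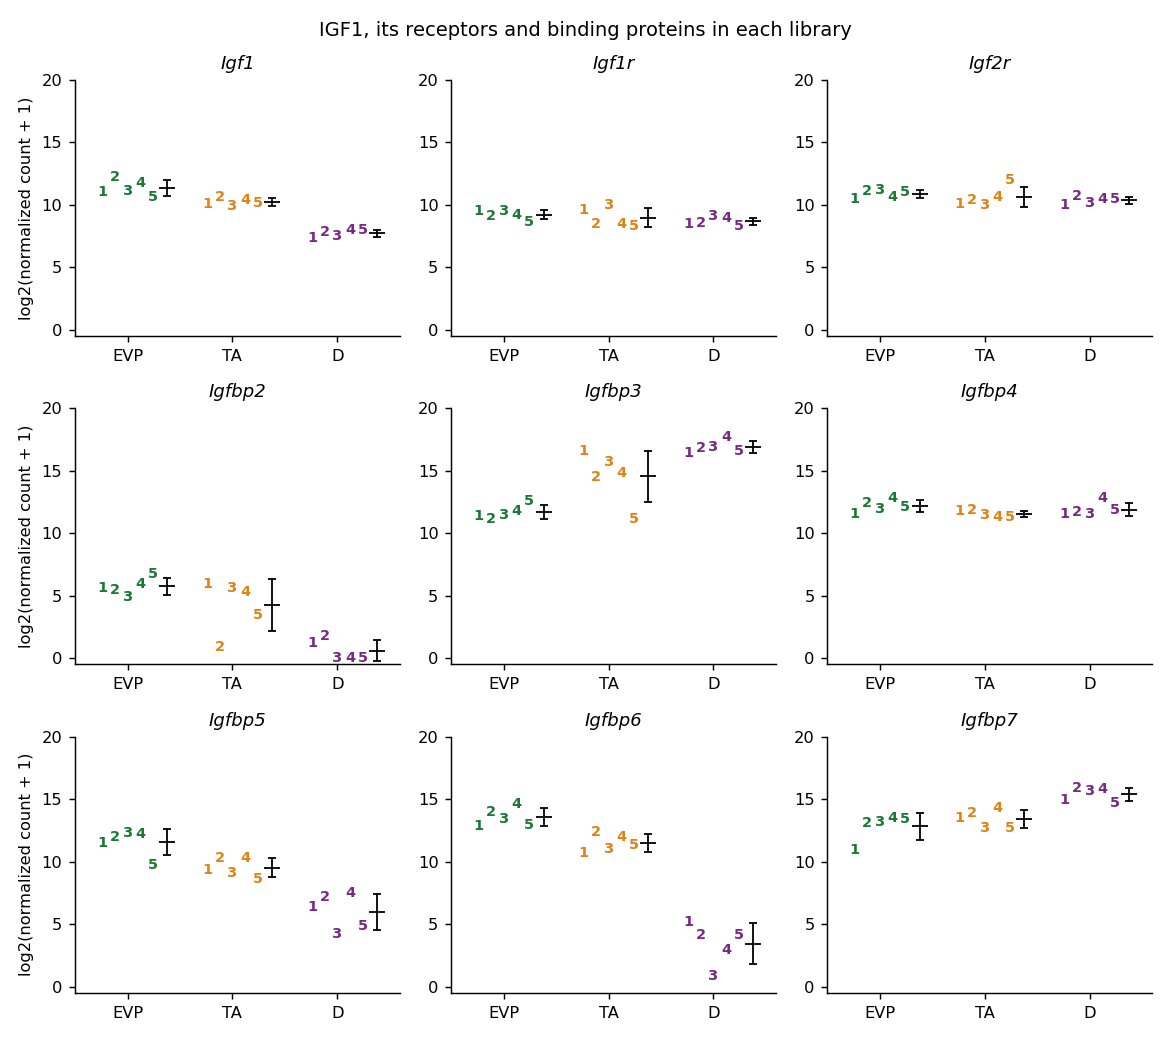
Log2(normalized count + 1) of the 9 genes in 15 libraries, with 1 panel per gene; digits are replicate numbers placed at their values and the black marks give the mean and SD of each population (n = 5). *Igf1*, *Igfbp5* and *Igfbp6* stepped down from EVP to D, *Igfbp3* and *Igfbp7* were highest in D, and *Igf1r*, *Igf2r* and *Igfbp4* overlapped between populations.

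*Igf1* (ENSMUSG00000020053, chr10:87858265-87937042) encodes the ligand. The EVP libraries held 2054, 4848, 2176, 3497 and 1614 normalized counts (replicates 1 to 5). In TA they held 1088, 1560, 933, 1357 and 1138, and in D 162, 224, 177, 248 and 254. No 2 populations overlapped, although the lowest EVP library was close to the highest TA library. The mean fell from 2838 ± 1325 (SD, n = 5) in EVP through 1215 ± 245 in TA to 213 ± 41.7 in D. EVP exceeded D 13.3-fold (log2 fold change 3.63, SE 0.27, limma adjusted p = 2.72e-08) and TA exceeded D 5.71-fold (2.51, adjusted p = 5.63e-06). The 2.34-fold difference between EVP and TA was smaller (1.13, limma adjusted p = 0.0252). It was lost in 7 of 27 alternative analyses, among them those without EVP replicate 2 (log2 fold change 0.91), EVP replicate 4 (1.02), TA replicate 1 (1.09), TA replicate 3 (1.04) or replicate 1 of every population (1.18). Over the 15 libraries, the genes with the pattern most like *Igf1*, among 11294 searched, were *C1ra*, a complement protease (Pearson r = 0.99), *Cd55*, a complement regulator (0.99), and *Npc2*, a cholesterol carrier (0.99). These correlations are descriptions over libraries that fall into populations.

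The other IGF ligand was close to absent at this depth. *Igf2* had no read in any EVP or D library and a mean of 0.300 ± 0.421 normalized counts in TA, and it was below the level needed for testing. A count of 0 allows up to 3 reads in a library, equal to between 1.81 and 10.5 normalized counts.

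The receptors differed little between populations. *Igf1r* (ENSMUSG00000005533, chr7:67952827-68233668) had 723, 537, 735, 576 and 398 normalized counts in EVP, 767, 351, 1020, 356 and 321 in TA, and 354, 377, 532, 483 and 321 in D. All 3 ranges overlapped, and TA was spread from 321 to 1020. The TA libraries with the 2 highest values, replicates 1 and 3, were also those with reads on the most olfactory receptor genes in TA (81.6% and 71.0%). The other populations did not show this order. In EVP, replicates 3 (735) and 1 (723) were highest, with reads on 14.5% and 98.3% of these genes. In D, replicate 3 was highest (532) with 23.2%, and replicate 1, with 89.2%, had 354. The part of such reads in the spread was not tested. Between EVP and D the log2 fold change was 0.51 (95% confidence interval −0.15 to 1.18, limma adjusted p = 0.340), between EVP and TA 0.21 (−0.45 to 0.87, adjusted p = 0.897), and between TA and D 0.30 (−0.36 to 0.96, adjusted p = 0.665). These intervals allow a difference in EVP over D of up to 1.18 on the log2 scale.

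*Igf2r* (ENSMUSG00000023830, chr17:12682406-12769664) had 1404, 2237, 2344, 1543 and 2054 normalized counts in EVP and 988, 1665, 1106, 1418 and 1429 in D. In TA, replicate 5 had 4052 and the other 4 libraries 1003 to 1593. The populations overlapped. The log2 fold change of EVP over D was 0.53 (95% confidence interval −0.12 to 1.18, limma adjusted p = 0.302). That of TA over D was 0.26 (−0.38 to 0.91, adjusted p = 0.705) and turned to −0.079 without TA replicate 5. *Airn*, an antisense transcript, overlaps *Igf2r* but shares none of its exon bases.

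The level of *Igf1* per kb of exon was also divided by that of *Igf1r*. This ratio was 8.46 ± 4.41 in EVP (4.81 to 15.3), 4.79 ± 2.65 in TA (1.55 to 7.54) and 0.912 ± 0.290 in D (0.563 to 1.34). EVP and D did not overlap, and neither did TA and D. Transcript ratios of this kind do not measure the proteins.

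Among the binding proteins, *Igfbp6* showed the largest difference of the 9 genes between EVP and D. It encodes a binding protein with a preference for IGF2, lies at chr15:102144362-102149511 (ENSMUSG00000023046) and has the first of the windows printed above. The EVP libraries held 7510, 16446, 11151, 25658 and 7874 normalized counts, the TA libraries 1639, 5283, 2011, 4117 and 2619, and the D libraries 34.3, 16.3, 0.782, 6.76 and 16.3. Every EVP library was above every TA library, and every TA library was above every D library; the D values rested on 1 to 27 reads. EVP exceeded D 921-fold (log2 fold change 10.15, SE 0.61, limma adjusted p = 2.71e-09) and TA exceeded D 210-fold (8.04, adjusted p = 1.24e-07). EVP and TA differed 4.38-fold without overlap, a pattern shared with 4.29% of all genes tested, and this did not pass (2.11, limma adjusted p = 0.0704).

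*Igfbp5*, whose product also binds matrix, lies at chr1:72857932-72874884 (ENSMUSG00000026185). It held 2907, 4109, 4986, 4849 and 866 normalized counts in EVP, 631, 1262, 546, 1281 and 397 in TA, and 81.0, 141, 17.2, 176 and 27.2 in D. Replicate 5 was the lowest EVP library and fell among the TA libraries, whereas D stayed below both. EVP exceeded D 40.0-fold (log2 fold change 5.56, SE 0.61, limma adjusted p = 2.80e-06) and TA exceeded D 9.31-fold (3.54, adjusted p = 8.00e-04). The 4.30-fold difference between EVP and TA did not pass (2.03, limma adjusted p = 0.0820) and passed without EVP replicate 5 (2.48).

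*Igfbp2* (ENSMUSG00000039323, chr1:72824503-72852474), the neighbour of *Igfbp5* at a distance of 5457 bases, had far fewer reads. EVP held 49.2, 43.1, 29.5, 59.9 and 106 normalized counts and TA 58.6, 0.879, 48.0, 39.2 and 9.96. In D the values were 1.37, 2.45, 0, 0 and 0, which is 3 reads or fewer in every library. EVP was therefore at least 22.1-fold higher than D (limma adjusted p = 3.10e-04) and TA at least 12.1-fold higher (adjusted p = 0.0100), although TA replicate 2, with 1 read, overlapped D. EVP and TA overlapped and did not pass (log2 fold change 1.50, 95% confidence interval −0.36 to 3.36, limma adjusted p = 0.474).

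These 4 EVP-high genes went the same way as the fibroblast markers between EVP and D and between TA and D. Of those markers, 10 of 10 were higher in EVP than in D, beside 11.6% of all genes tested. Likewise 10 of 10 were higher in TA than in D, beside 8.21%. *Lum*, the collagen-binding proteoglycan lumican and a member of that marker list, was the gene most like *Igfbp6* (r = 0.99, 15 libraries), followed by *Gpc3*, a glypican, and *Ccl11*, a chemokine. *Lum* ranged from 10241 to 37406 normalized counts in EVP, 2638 to 12588 in TA and 0.782 to 57.1 in D. *Igfbp2* did not follow *Lum* within populations. TA replicate 2 was highest in *Lum* (12588) and lowest in *Igfbp2* (0.879). EVP replicate 5 was lowest in *Lum* (10241) and highest in *Igfbp2* (106). The genes most like *Igfbp5* were *Abi3bp*, a matrix protein (r = 0.97), *Timp2*, an inhibitor of metalloproteinases, and *Gstt1*, a glutathione transferase. *Krt23*, a keratin, was most like *Igfbp2* (r = 0.93), followed by *Itga11*, a collagen receptor, and *Flnc*, a filamin. The part of fibroblasts in these differences was not tested.

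*Igfbp3* (ENSMUSG00000020427, chr11:7206086-7213923), the main carrier of IGFs in blood, ran the other way. The EVP libraries held 2633, 2237, 2828, 3545 and 6173 normalized counts and the D libraries 89249, 115936, 119183, 212285 and 99115. In TA they held 97274, 23179, 51700, 29350 and 2292, so that replicate 1 lay among the D libraries and replicate 5 among the EVP libraries. D exceeded EVP 36.5-fold without overlap (log2 fold change of EVP over D −5.22, SE 0.68, limma adjusted p = 1.67e-05). TA exceeded EVP 11.7-fold in the means, with overlap (log2 fold change of EVP over TA −2.88, limma adjusted p = 0.0243). D exceeded TA 3.12-fold, again with overlap (log2 fold change of TA over D −2.34, limma adjusted p = 0.0292). The call between EVP and TA was lost in 9 of 27 alternatives, among them those without EVP replicate 1, 2 or 3 or TA replicate 1, 3 or 4 (log2 fold change −2.83 to −2.37). The call between TA and D was lost in 7 of 27, among them those without TA replicate 2 or D replicate 2, 3, 4 or 5 (−2.41 to −2.14).

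The spread of *Igfbp3* in TA ran with that of *Pecam1*, which encodes CD31, a protein used for the sort. *Pecam1* had 15414, 3137, 7783, 4502 and 372 normalized counts in TA replicates 1 to 5, the same order of libraries as *Igfbp3*. In EVP it ranged from 119 to 613 and in D from 19114 to 32189. It was the gene most like *Igfbp3* of 11294 searched (r = 0.99, 15 libraries), followed by *Prkch*, a protein kinase C, and *Myo18a*, a myosin. Of the 12 pan-endothelial markers, 11 were higher in D than in EVP, beside 7.46% of all genes tested. None was higher in EVP, beside 11.6% of all genes tested. The part of cell composition in the TA libraries was not tested.

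**Figure D2:**
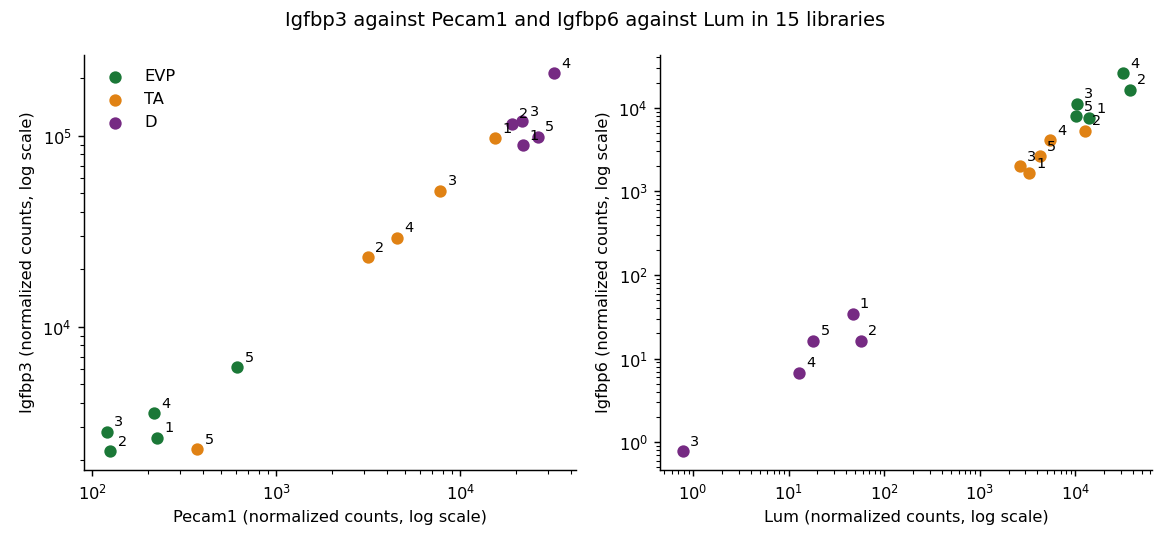
Normalized counts of *Igfbp3* against *Pecam1* (left) and of *Igfbp6* against *Lum* (right), both axes on a log scale, in 15 libraries; points are libraries, colored by population and marked with the replicate number. TA replicate 5 lies beside the EVP libraries on the left, with 372 for *Pecam1* and 2292 for *Igfbp3*, and TA replicate 1 lies next to D.

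*Igfbp7* (ENSMUSG00000036256, chr5:77349240-77408041) was also higher in D but with a smaller difference. The EVP libraries held 1903, 8967, 9271, 11772 and 10629 normalized counts, the TA libraries 11421, 15030, 6566, 19998 and 6781, and the D libraries 30928, 59343, 50740, 58204 and 26023. D lay above both other populations in all 5 libraries, and EVP and TA overlapped. D exceeded EVP 5.29-fold (log2 fold change of EVP over D −2.56, SE 0.44, limma adjusted p = 3.16e-04) and TA 3.77-fold (TA over D −1.97, adjusted p = 0.00570). EVP and TA did not pass (−0.59, 95% confidence interval −1.52 to 0.34, limma adjusted p = 0.627). *Rhob*, a small GTPase (r = 0.97), *Tprgl* and *Maf1*, a repressor of RNA polymerase III, were the genes most like it. *Polr2b*, on the other strand, shares 85 exon bases with *Igfbp7* (7.03% of its exon length), so a small part of its reads could be uncertain.

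*Igfbp4* (ENSMUSG00000017493, chr11:99041244-99054392), the substrate of the protease PAPP-A, did not follow the order of the hierarchy. EVP held 3005, 5355, 3841, 7233 and 4325 normalized counts, TA 3578, 3630, 2846, 2492 and 2468, and D 2990, 3389, 2920, 7297 and 3663. The ranges overlapped, with TA lowest in the mean. EVP over D gave a log2 fold change of 0.26 (95% confidence interval −0.29 to 0.80, limma adjusted p = 0.628). EVP over TA gave 0.62 (0.074 to 1.16) and did not pass (limma adjusted p = 0.242), although this interval, which is not adjusted for the number of genes, lies above 0, and TA over D gave −0.36 (−0.90 to 0.18, adjusted p = 0.476).

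**Figure D3:**
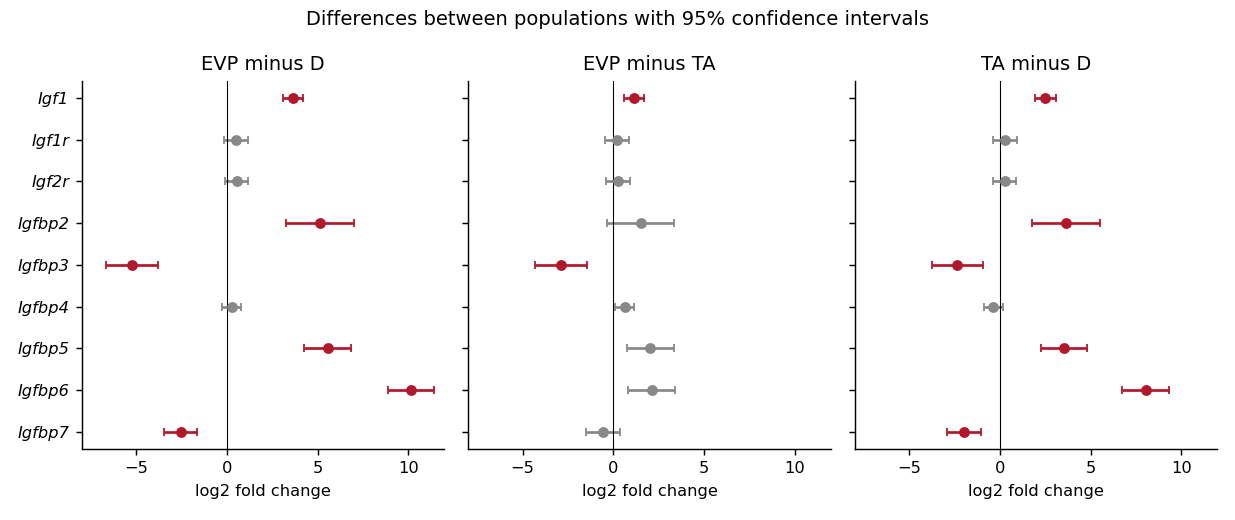
Log2 fold changes of the 9 genes in the 3 comparisons, with 95% confidence intervals from limma (5 libraries per population); red marks an adjusted p under 0.05 and gray the rest. *Igfbp6* had the largest positive value (10.15) and *Igfbp3* the largest negative one (−5.22) in EVP minus D, and both receptors had intervals across 0 throughout.

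On the log2 scale the TA mean lay between those of EVP and D for 8 of the 9 genes. How often this holds over all genes tested was not counted, so it is not shown to be particular to these genes. Between EVP and TA, *Igfbp2*, *Igfbp5*, *Igfbp6* and *Igfbp7* did not pass. With EVP set to 0 and D to 1, the TA mean was at 0.21 for *Igfbp6*, 0.23 for *Igfbp7*, 0.29 for *Igfbp2*, 0.31 for *Igf1* and 0.36 for *Igfbp5*, nearer to EVP. It was at 0.55 for *Igfbp3*, whose TA libraries spread from 2292 to 97274 normalized counts. The position for *Igfbp2* rests in part on 1 read in TA replicate 2 and on 3 reads or fewer in every D library. That for *Igfbp6* rests in part on D values of 1 to 27 reads. Positions for *Igf1r* (0.41) and *Igf2r* (0.50) rest on differences that did not pass.

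To compare the binding proteins with each other, normalized counts were divided by the exon length of each gene in kb, and each was expressed as a share of the sum over the 6. In EVP *Igfbp6* took 54.9% ± 11.6 and *Igfbp7* 31.1% ± 11.7 of this sum, whereas *Igfbp3* took 5.78% ± 3.31. In D *Igfbp3* took 51.6% ± 6.82 and *Igfbp7* 47.2% ± 7.12, and *Igfbp6* took 0.0213% ± 0.0221. *Igfbp6* ranked first in 4 of 5 EVP libraries, with *Igfbp7* first in replicate 5, and the first place in D went to *Igfbp3* in 3 libraries and *Igfbp7* in 2.

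The TA libraries were divided. *Igfbp3* took 72.4% and 67.4% in replicates 1 and 3, 28.9% and 30.8% in replicates 2 and 4, and 7.85% in replicate 5, where *Igfbp6* reached 25.2%. *Igfbp4* was a minor component throughout, with 5.08% ± 0.900 in EVP, 3.11% ± 1.71 in TA and 1.18% ± 0.315 in D, and *Igfbp5* took 2.90% ± 1.55 in EVP. The sum itself was 22193 ± 9526 normalized counts per kb in EVP, 26566 ± 12098 in TA and 78831 ± 26304 in D, and D did not overlap the others.

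**Figure D4:**
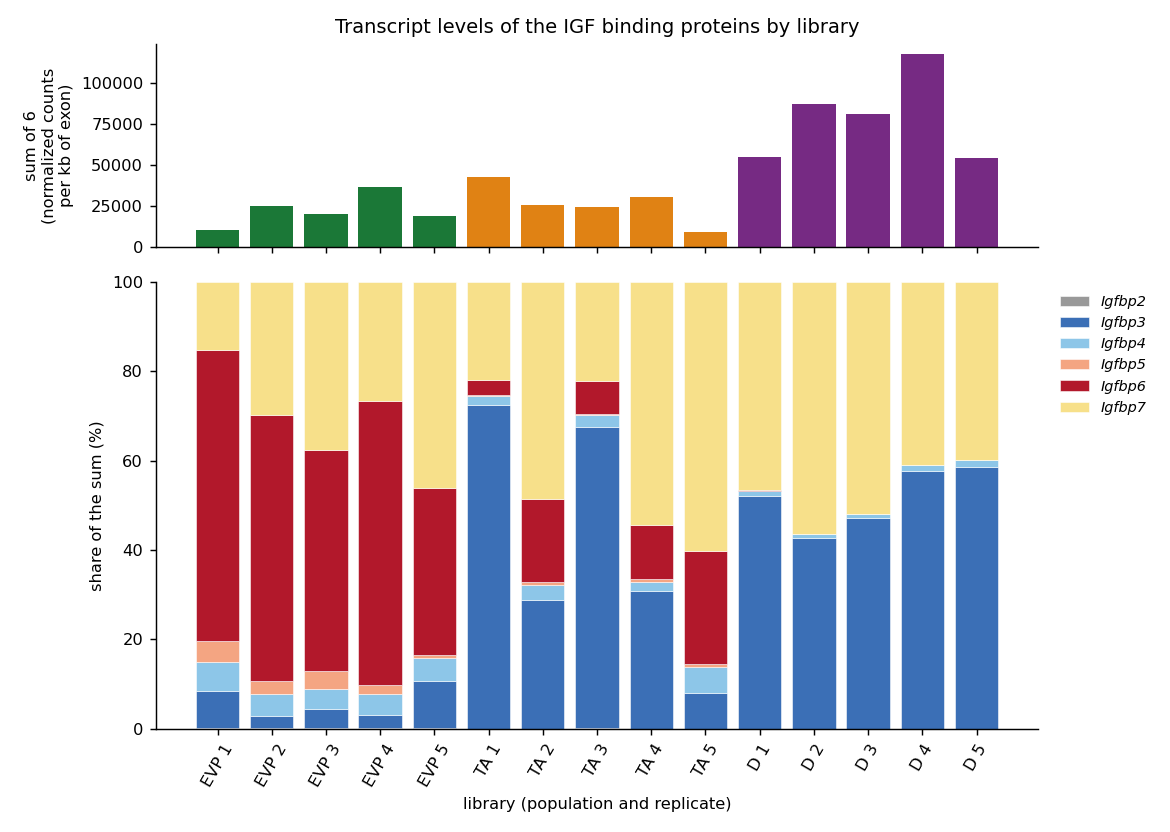
Summed level of the 6 binding proteins in normalized counts per kb of exon (top) and the share of each in that sum in percent (bottom), for 15 libraries; bars are single libraries. EVP bars are mostly *Igfbp6* and *Igfbp7*, D bars are *Igfbp3* and *Igfbp7*, and TA replicate 5 resembles EVP more than the other TA libraries do.

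Per kb, *Igf1* and both receptors stood below 5 of the 6 binding proteins in EVP. The order there was *Igfbp6* (12345 ± 6808), *Igfbp7* (7038 ± 3192), *Igfbp3* (1113 ± 504), *Igfbp4* (1076 ± 368), *Igfbp5* (590 ± 284), *Igf1* (287 ± 134), *Igf2r* (206 ± 45.1), *Igf1r* (35.4 ± 8.36) and *Igfbp2* (31.1 ± 15.8) normalized counts per kb. Only *Igf2r* and *Igf1r* were neighbours in this order whose ranges did not overlap. In D *Igfbp3* (40624 ± 15700) and *Igfbp7* (37260 ± 12888) overlapped at the top, followed without overlap by *Igfbp4* (917 ± 416), *Igf2r* (142 ± 29.2) and *Igf1r* (24.6 ± 5.36). *Igf1r*, *Igf1* (21.5 ± 4.21), *Igfbp5* (14.7 ± 11.6) and *Igfbp6* (13.4 ± 11.4) could not be ordered beyond their spread.

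Of 8 tested genes that encode proteases of the binding proteins or inhibitors of such proteases, 5 were higher in EVP and 2 higher in D, beside 11.6% and 7.46% of all genes tested, with a median log2 fold change of 2.05 against 0.46 over all genes tested. *Htra1*, a serine protease that cleaves binding proteins, averaged 7210 ± 2013 normalized counts in EVP, 3300 ± 2004 in TA and 359 ± 140 in D (log2 fold change of EVP over D 4.38, limma adjusted p = 5.86e-08). *Pappa*, which encodes PAPP-A, averaged 157 ± 184, 59.1 ± 18.5 and 4.12 ± 9.21 (5.79, limma adjusted p = 8.00e-05).

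The stanniocalcins, which inhibit PAPP-A, split. *Stc2* averaged 346 ± 97.7 normalized counts in EVP and 66.7 ± 34.5 in D (log2 fold change 2.47, limma adjusted p = 1.26e-04). *Stc1* averaged 479 ± 232 in EVP, 2267 ± 1082 in TA and 8170 ± 2730 in D (−4.15, limma adjusted p = 7.01e-07). The other genes past the threshold were *Adam9* (1.06) and *Pappa2* (3.45), higher in EVP, and *Adam12* (−0.72), higher in D. *Pappa2* and *Adam12* were close to the threshold (limma adjusted p = 0.0410 and 0.0474), and their EVP and D libraries overlapped. *Adam28* did not pass. Between EVP and TA 2 of the 8 passed, *Htra1* in EVP and *Stc1* in TA, beside 3.50% of all genes tested. Libraries overlapped for both, and *Htra1* was at the edge of the threshold (limma adjusted p = 0.0497, against 0.00669 for *Stc1*). There edgeR called 1 of the 8 and DESeq2 3. Between TA and D 3 were higher in TA and 2 in D (8.21% and 4.31% of all genes tested).

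Among 9 relatives that carry an IGFBP domain, 4 were higher in EVP and 2 higher in D (11.6% and 7.46% of all genes tested), with a median log2 fold change of 0.94 against 0.46 over all genes. *Nov* and *Wisp2*, matricellular proteins of the CCN family, fell from 5068 ± 3666 and 3194 ± 1441 normalized counts in EVP to 28.0 ± 15.8 and 9.31 ± 14.9 in D (log2 fold changes 7.39 and 9.22). *Esm1*, endocan, a proteoglycan of activated endothelium, ran from 306 ± 247 in EVP through 6068 ± 5847 in TA to 21373 ± 4516 in D (−6.53), and *Crim1*, a transmembrane relative, from 75.5 ± 28.2 to 1141 ± 255 (−4.00). *Wisp1* (1.34) and *Kazald1* (1.75) were higher in EVP. Between EVP and TA 1 was higher in EVP and 2 in TA (1.56% and 1.94% of all genes tested). Between TA and D 2 were higher on each side (8.21% in TA and 4.31% in D of all genes tested).

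Of 23 genes of receptor signalling, 3 were higher in EVP, 6 were higher in D and 14 did not pass (11.6% and 7.46% of all genes tested were higher in EVP and in D), with a median of −0.27 against 0.46 over all genes. The insulin receptor substrates *Irs1* (150 ± 65.1 in EVP and 6.63 ± 12.4 in D, log2 fold change 5.33, limma adjusted p = 6.13e-04) and *Irs2* (215 ± 97.9 and 5.09 ± 3.11, 5.16, adjusted p = 1.23e-06) were both higher in EVP. The kinase *Akt2* was higher in EVP (1194 ± 316 and 195 ± 31.7, 2.59, limma adjusted p = 2.59e-07) and *Akt1* higher in D (988 ± 214 and 1514 ± 226, −0.63, adjusted p = 0.0219). The adaptor *Gab1* (−1.23), the exchange factor *Sos1* (−1.52), the kinases *Pik3cb* (−1.68) and *Mtor* (−0.98) and the transcription factor *Foxo1* (−1.67) were higher in D. Between EVP and TA limma called 0 of the 23 genes (6 at an unadjusted p under 0.05), beside 3.50% of all genes tested. There edgeR called 0 and DESeq2 4. Between TA and D, 3 were higher in TA and 5 in D (8.21% and 4.31% of all genes tested).

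The insulin receptor *Insr*, which can pair with IGF1R, was the 1 gene of 4 tested among other ligands, receptors and carriers to pass. It averaged 330 ± 190 normalized counts in EVP, 480 ± 315 in TA and 1498 ± 824 in D (EVP over D −2.16, limma adjusted p = 0.00808; TA over D −1.75, adjusted p = 0.0424). *Igfals* (2.64), *Insrr* (2.37) and *Ins2* (1.12), with means of 12.4 normalized counts or less, did not pass. *Igfbp1* was below the level for testing, with means of 0.261, 1.13 and 10.0, as was *Ins1*. In the growth hormone route to *Igf1*, the growth hormone receptor *Ghr* (1721 ± 613 in EVP and 827 ± 98.5 in D, log2 fold change 0.99, limma adjusted p = 0.00557) and the transcription factor *Stat5a* (535 ± 117 and 125 ± 22.3, 2.08, adjusted p = 5.50e-06) were higher in EVP and *Jak2* (−0.42), *Socs2* (0.087) and *Stat5b* (0.078) did not pass. Of the 7 genes of mannose 6-phosphate sorting, which share the route of *Igf2r*, *Gga2* (1.74) was higher in EVP and *Nagpa* (−1.06) higher in D. The other 5 did not pass, among them *Gnptab* (0.56) and *M6pr* (−0.28). Beside these lists, 11.6% of all genes tested were higher in EVP and 7.46% higher in D.

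**Figure D5:**
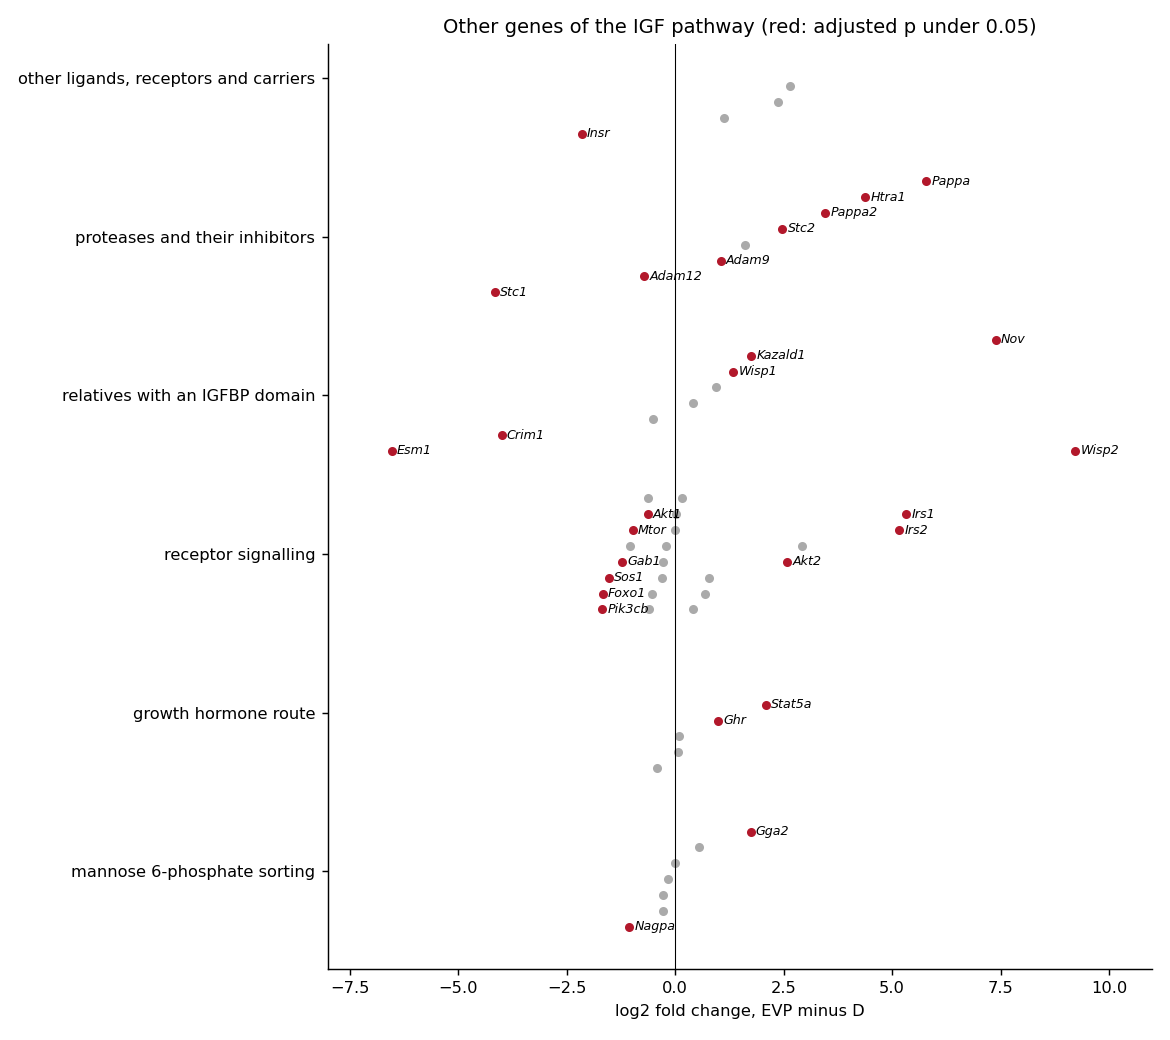
Log2 fold changes of EVP minus D for the tested genes of 6 pathway lists, 1 list per row; each point is a gene, red and named where the limma adjusted p was under 0.05 and gray otherwise, and height within a row only separates the points. Of the proteases and their inhibitors, 5 of 8 were higher in EVP, and receptor signalling is divided (3 higher in EVP and 6 higher in D of 23). Of all genes tested, 11.6% were higher in EVP and 7.46% higher in D.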

How the data were processed

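RNA sequencing libraries of EVP, TA and D cells (15, 5 per population) were prepared by the authors from oligo-dT primed cDNA (modified Smart-Seq2, Nextera XT) and aligned with STAR 2.5.3a to GRCm38; the strand setting of read counting is not given in the sources used here. What the authors deposited are signal values, counts per gene normalized by 1 DESeq2 1.10.1 size factor for each library. Divided by the smallest value above 0, 100% came out whole (tolerance 0.001), so whole reads were recovered. The authors' tables of comparisons (mean, log2 fold change, standard error, Wald statistic, p-values) were not used.

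Log2(normalized count + 1) of 25549 genes (mean of 5 normalized counts or more) was compared with limma 3.58.1 in R 4.3.3 (trend, two-sided, 1 coefficient per population, all 15 libraries, Benjamini-Hochberg over all genes tested, adjusted p under 0.05), tested on simulated data. Folds are ratios of mean normalized counts, and bounds use 3 reads per library. Limits cover counting error only, since reads carry no molecular identifiers. edgeR 4.0.16 on whole reads called 3849 genes (EVP with D), 663 (EVP with TA) and 2570 (TA with D), and DESeq2 1.42.0 called 5546, 1919 and 4225.

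The 9 genes, pathway lists and marker lists were chosen with earlier results of these data known. Always named were the 9 genes, the 4 genes of each list with the lowest adjusted p between EVP and D, genes of a list that were not tested, and, of genes averaging 100 or more normalized counts, the 3 whose log2 values correlated best with each of the 9; other list genes past the threshold were named after their values were seen. Symbols shared by 2 or more genes (220 genes) were left out, so 4 of 5 lymphatic markers were used. Exon lengths came from GENCODE vM21 (99.8% of genes), promoter windows from RefSeq (all 9 genes matched). Alternatives changed the pseudocount, filter, scaling, weights, populations fitted, replicate block, tool or libraries. Beside the 23 genes counted for receptor signalling, 1 more was listed and is not reported here.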

Additional observations from a re-analysis of the deposited data

Results flagged for a closer look

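In 4 of 27 combinations of gene and population, 1 of the 5 libraries lay far from the others by Dixon's criterion on normalized counts. Chance gives this in about 1 of 20 groups of normally distributed values. The criterion was not applied to log2 values. *Igf2r* was highest in TA replicate 5, at 4052 normalized counts against 1593 in the next library. In D replicate 4, *Igfbp3* reached 212285 (next 119183) and *Igfbp4* reached 7297 (next 3663). *Igfbp7* was lowest in EVP replicate 1, at 1903 against 8967 in the next library; this library had the fewest reads of all 15.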

How the results depend on the processing

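Between EVP and D, 6 of the 9 genes passed under all 27 alternatives. Between EVP and TA the count of 2 became 1 with the same total per library or array weights, 4 with quantile normalization or DESeq2, 0 without replicate 1 of every population (5 at an unadjusted limma p under 0.05), and 0 to 3 when 1 library was left out (0 without EVP replicate 2, TA replicate 1 or TA replicate 3, with 4, 5 and 5 at an unadjusted p under 0.05, and 1 without EVP replicates 1, 3 or 4 or TA replicate 4). With only EVP and TA fitted the count stayed at 2, but *Igfbp5* and *Igfbp6* passed in place of *Igf1* and *Igfbp3*. Between EVP and TA, *Igf1* was lost in 7 of 27 alternatives (log2 fold change 0.91 to 1.30, adjusted p up to 0.1002) and *Igfbp3* in 9 of 27 (−3.72 to −1.80, adjusted p up to 0.192). *Igfbp5* passed in 5 and *Igfbp6* in 6. Between TA and D, *Igfbp3* was lost in 7 of 27 alternatives (with only these populations, with edgeR, and without TA replicate 2 or D replicates 2, 3, 4 or 5; adjusted p up to 0.0948), and *Igfbp2* with quantile normalization (adjusted p = 0.133). Direction turned for *Igf2r* (EVP over TA −0.088) and *Igf1r* (TA over D −0.014) with array weights and for *Igf2r* (TA over D −0.079) without TA replicate 5, the lowest of −0.079 to 0.42 when 1 library was left out. The causes were not tested.

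Counts over all genes were 4859 (EVP with D), 893 (EVP with TA) and 3199 (TA with D). They became 7609 and 5054 with array weights (EVP with D, TA with D), 1919 with DESeq2 and 104 without replicate 1 of every population (EVP with TA), and 2117 with quantile normalization (TA with D), and leaving out 1 library gave 429 to 1214 for EVP with TA. Quantile normalization moved the median of all genes between EVP and D from 0.46 to −0.049 and the calls from 2952 higher in EVP and 1907 higher in D to 1920 and 1983; without EVP replicate 1 the median was 0.00123. The replicate numbers were not treated as pairs, because the labels do not say what they mark and not every same-numbered pair of libraries correlated above 0.1. Same-numbered libraries correlated from −0.136 to 0.689 (11 of 15 pairs over 0.1), and 11 of 15 libraries correlated best with their own number in both other populations. With the number as a block, 5710, 1262 and 4047 genes passed, and 6, 3 and 6 of the 9, adding *Igfbp5* between EVP and TA (adjusted p = 0.0134). Without length, the share of *Igfbp6* in EVP was 39.1%, and those of *Igfbp3* and *Igfbp7* in D were 71.9% and 25.8%. Depth limits *Igfbp2* and *Igfbp6* in D, where 1 library or more had 3 reads or fewer.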

Other observations

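Within the 9 genes, over 15 libraries, *Igf1* correlated with *Igfbp6* (Pearson r = 0.96) and *Igfbp5* (0.94) and inversely with *Igfbp3* (−0.84), and *Igfbp3* with *Igfbp7* (0.76); the libraries fall into 3 populations, so these values describe the populations as much as the libraries. The genes most like *Igf1r* were *Nxn* (0.86), *Setd7* and *Zer1*, those most like *Igf2r* were *Sept11* (0.84), *Cald1* and *Phf13*, and those most like *Igfbp4* were *Ddah2* (0.84), *Tnfrsf1a* and *Nid1*. The 4 lymphatic markers used summed to 8341 to 18769 normalized counts in EVP, 4402 to 6275 in TA and 2889 to 5646 in D, and their members went opposite ways. *Pdpn*, podoplanin, which fibroblasts also express, made up most of the sum in EVP (13904 ± 3759 against 164 ± 73.1 in D), whereas *Flt4* (39.1 ± 33.3 and 3506 ± 809) and *Lyve1* (43.2 ± 41.5 and 338 ± 231) were higher in D and *Prox1* did not pass.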
